A study of Mus musculus with 16 samples.

Results

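The genes described here are 10 genes of the major histocompatibility complex (MHC) class I presentation pathway, chosen by name from the 43346 genes of the count table. They are the heavy chains H2-K1 and H2-D1, the light chain B2m, the peptide transporter subunits Tap1 and Tap2 and the loading factor Tapbp, the immunoproteasome subunits Psmb8, Psmb9 and Psmb10, and the transactivator Nlrc5. All 10 were found, and all 10 had enough counts to be tested. RNA was sequenced from lung endothelial cells (ECs), the cells that line the vessels, in 16 libraries of 4 groups. Bleomycin injures the lung and leads to fibrosis, and the design asked how young and aged lung ECs differ without and with that injury. Lungs were taken at a single time after bleomycin or PBS, which the study calls the early resolution phase. Young Sham (n = 5, replicates 21 to 25) were FVB mice of 2 months given PBS, and Young Bleo (n = 4, replicates 17 to 20) were FVB mice of 2 months given bleomycin. Aged Sham (n = 3, replicates 13 to 15) and Aged Bleo (n = 4, replicates 1, 2, 3 and 5) were the same strain at 18 months, given PBS and bleomycin. According to the study's methods, all mice, female and male, carried a Col1a1-GFP reporter transgene, and ECs were sorted as CD31+ cells that lacked CD45, EpCAM and GFP. The model has 1 strain, 1 sort gate and 2 ages, and the mixture of sexes in each group is not given in the labels.

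MHC class I molecules display fragments of a cell's own proteins to CD8+ T cells. The proteasome cuts the proteins, and interferon-gamma replaces its catalytic subunits with the immunoproteasome subunits. TAP pumps the peptides into the endoplasmic reticulum, tapasin (the Tapbp product) holds the empty heavy chain and beta-2-microglobulin (the B2m product) against the transporter until a peptide is bound, and the loaded complex moves to the cell surface. NLRC5 acts in the nucleus on the promoters of these genes, through factors that sit on their X and Y boxes. ECs are constantly in touch with circulating T cells and carry class I at rest.

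Of the 10 genes, 8 lie on chromosome 17 or chromosome 2 of the mm10 build and 2 on chromosome 8. Tapbp is at chr17:33915899-33929288, H2-K1 at chr17:33996017-34000333, Psmb9 at chr17:34181988-34187764, Tap1 at chr17:34187553-34197225, Psmb8 at chr17:34197721-34201454, Tap2 at chr17:34203527-34216321 and H2-D1 at chr17:35262730-35267499. B2m is at chr2:122147686-122153083, Nlrc5 at chr8:94472763-94527272 and Psmb10 at chr8:105935728-105938392. The RefSeq promoter windows for GRCm38.p6 (250 bases before to 50 bases after a start site, read in the direction of the gene) held 8 of the 10 genes. The windows of the heavy chains and the light chain are printed because these 3 genes had the lowest log2 fold changes of the 10 in Young Bleo against Young Sham, and their windows share a letter pattern. Of these 3, only H2-D1 was called changed by the rule given below. H2-K1 (1 of its 2 windows) is on the minus strand at chr17:34000298-34000597, H2-D1 on the plus strand at chr17:35262844-35263143 and B2m on the plus strand at chr2:122147437-122147736. Capitals mark TGACG and ATTGG with 20 bases between them (the letters of an X2 box and a Y box), GGG and TTCCC with 2 bases between them (a kappaB-like pattern), and GAA and TGAAA with 1 base or GAAA and GAAA with 2 bases between them (interferon-response-like patterns), each searched on both strands.
H2-K1: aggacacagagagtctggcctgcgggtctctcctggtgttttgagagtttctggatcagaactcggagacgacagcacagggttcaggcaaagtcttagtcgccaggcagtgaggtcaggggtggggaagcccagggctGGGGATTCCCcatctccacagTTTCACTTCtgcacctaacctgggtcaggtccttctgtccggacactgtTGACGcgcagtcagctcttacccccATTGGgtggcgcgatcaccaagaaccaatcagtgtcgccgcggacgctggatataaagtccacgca
H2-D1: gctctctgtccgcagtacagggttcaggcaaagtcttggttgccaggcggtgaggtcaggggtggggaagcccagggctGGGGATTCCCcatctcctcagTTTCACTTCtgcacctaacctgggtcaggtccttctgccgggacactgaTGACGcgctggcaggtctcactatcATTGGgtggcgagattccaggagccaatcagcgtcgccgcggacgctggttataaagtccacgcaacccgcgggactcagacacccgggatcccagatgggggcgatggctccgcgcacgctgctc
B2m: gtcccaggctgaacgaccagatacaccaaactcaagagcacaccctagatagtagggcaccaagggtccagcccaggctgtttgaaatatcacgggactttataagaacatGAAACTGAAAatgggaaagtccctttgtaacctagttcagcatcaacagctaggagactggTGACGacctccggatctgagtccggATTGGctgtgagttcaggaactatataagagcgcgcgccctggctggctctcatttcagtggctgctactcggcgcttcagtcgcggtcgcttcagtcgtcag

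The spaced TGACG and ATTGG pair was in 31 of 32851 promoter windows (0.0944%), among them the windows of H2-K1, H2-D1, B2m and the further class I gene H2-M3. In these windows the pair began 41 bases before the H2-K1 start, 101 bases before the H2-D1 start and 78 bases before the B2m start. In Young Bleo against Young Sham H2-M3 differed by -0.01, whereas H2-T23 (-0.65) and H2-Q7 (-0.63) lacked the pair in their windows. Whether the pair goes with the fold changes was not tested. The kappaB-like pattern was in 1.75% of all windows and among the 8 in H2-K1 and H2-D1. GAA with TGAAA was in 1.83% of all windows and again in H2-K1 and H2-D1, where it read on the opposite strand, while GAAA with GAAA was in 3.44% and among the 8 in B2m. The windows of Tap1, Tapbp, Psmb8, Psmb9 and Psmb10 held none of the 4 patterns in these letters, which says nothing of the factors. The patterns were chosen after the sequences had been read. The Tap1 and Psmb9 windows overlap, since the pair is read outward from a shared stretch between them.

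FVB mice carry another MHC haplotype than the mm10 reference, so reads of H2-K1 and H2-D1 may have been lost or placed on a related gene. In the reference transcripts (GENCODE vM21), 14.3% of the 50-base windows of H2-D1 and 8.79% of those of H2-K1 also occurred in transcripts of other genes. The share was 0.861% for Tap1 and 0.737% for Tap2, which share windows with each other, and 2.00% for Tapbp. B2m, Psmb8, Psmb9, Psmb10 and Nlrc5 shared none. These shares count exact matches within the reference and do not measure how many FVB reads were lost or moved. Of the 10 genes, only H2-K1 and H2-D1 overlap no other gene of the table. Tap1 and Psmb9 overlap by 212 bases, and the antisense gene Gm20496, whose mean count was 31.4% of that of Tap2 and 21.8% of that of Psmb8, overlaps both. Tap2 also overlaps the protein-coding gene Gm15821, whose mean count was 21.4% of its own. The strand setting of the counting is not stated, so the counts of genes that overlap another are uncertain to that extent.

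Total counts per library ran from 20907113 to 71035301, and the raw counts of Nlrc5, the lowest of the 10 genes, from 399 to 1998. Over 25 pairs of replicates, chi-square divided by its degrees of freedom was 32.8 to 428, and every library was counted as 1 sample. The summed level of 7 endothelial markers was 2256 to 2540 FPKM (fragments scaled to the gene length in the table and to library depth) in Young Sham, 1472 to 1902 in Young Bleo, 2001 to 2156 in Aged Sham and 1318 to 1952 in Aged Bleo. Of these 7, 1 was called higher and 2 lower (DESeq2) in Young Bleo and likewise in Aged Bleo, each against Young Sham. The median log2 fold changes were -0.16 and -0.24. The summed level of 7 macrophage and dendritic markers, led by Lyz2, was 22.5 to 39.3 FPKM in Young Sham, 146 to 421 in Young Bleo, 49.4 to 160 in Aged Sham and 187 to 1336 in Aged Bleo. No defining marker of the macrophage list or the endothelial list was at 0 in all libraries of a group. Other lists moved with the groups as well. The sum of 6 leukocyte markers was 4.58 to 10.8 FPKM in Young Sham, 13.4 to 40.5 in Young Bleo, 15.7 to 50.4 in Aged Sham and 34.5 to 125 in Aged Bleo, and that of 3 platelet markers was 227 to 440, 91.4 to 207, 527 to 2905 and 53.6 to 408 FPKM in the same order. The 4 mesothelial markers summed to 0.00405 to 1.08 FPKM in Young Sham, where Wt1 was at 0 in all libraries, and to 4.96 to 15.7 in Young Bleo, with 4 of 4 called higher (DESeq2). The 4 pericyte and smooth muscle markers summed to a median of 33.3 FPKM in Young Sham and 17.8 in Young Bleo, with overlapping ranges and with 2 of 4 called lower. In Aged Bleo they summed to a median of 9.31 FPKM and lay below all Young Sham libraries (26.7 to 65.5), with 4 of 4 called lower. The 5 fibroblast markers summed to 5.48 to 9.39 FPKM in Aged Bleo and 10.4 to 24.0 in Young Sham, with 3 of 5 called lower. These lists thus moved with the injury or the age that the class I comparisons test, and their part in the results below was not tested. In bulk libraries, fewer cells of a type and less RNA per cell cannot be told apart.

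Class I heavy chains and B2m were among the most abundant transcripts of lung ECs. By mean normalized count (deposited counts divided by DESeq2 size factors), H2-D1 ranked number 1 of all 43346 genes, B2m ranked 6 and H2-K1 ranked 22. All 24 protein-coding class I heavy chain genes together took 2.04 ± 0.431% of a library's counts (SD, n = 16), of which H2-D1 held 76.7 ± 1.69% and H2-K1 13.9 ± 1.07%. Per length, the order in Young Sham was H2-D1 with 3025 ± 460 FPKM, B2m with 2204 ± 570 FPKM and H2-K1 with 537 ± 103 FPKM (SD, n = 5). H2-D1 was above H2-K1 by 4.52 to 6.62 times in FPKM across the 16 libraries. FVB reads were aligned to a reference of another MHC haplotype, so reads of either gene may have been lost or misplaced. Their part in the rank and share of H2-D1 and in this ratio was not tested. H2-D1 and B2m overlapped in range in Young Sham, whereas every Young Sham value of H2-K1 lay below every value of the other two. The remaining genes were far lower. Psmb10 had 128 ± 20.5 FPKM, Tapbp 118 ± 9.59 FPKM and Psmb8 68.1 ± 13.7 FPKM in Young Sham (SD, n = 5). Tap2 had 37.3 ± 7.78 FPKM, Psmb9 29.2 ± 8.27 FPKM, Tap1 13.9 ± 5.96 FPKM and Nlrc5 1.02 ± 0.414 FPKM. Psmb10 and Tapbp did not differ beyond their spread, and neither did Tap2 and Psmb9. Tap2 was at 2.05 to 3.90 times Tap1 in FPKM over the 16 libraries, while their mean normalized counts were 12984 and 6740. Levels per length rest on the gene lengths of the table, which for some genes are well above that of the longest protein-coding reference transcript. They were 5476 bases for Tap1 (transcript 2953), 3659 for Psmb9 (1352), 2736 for Psmb8 (1628) and 2608 for H2-K1 (1619). The lengths were nearer for Tap2 with 3781 (3442) and H2-D1 with 2579 (2102). The ratios of Tap2 to Tap1 and of H2-D1 to H2-K1 and the place of Psmb9 in the order thus depend on the length used.

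**Figure D1:**
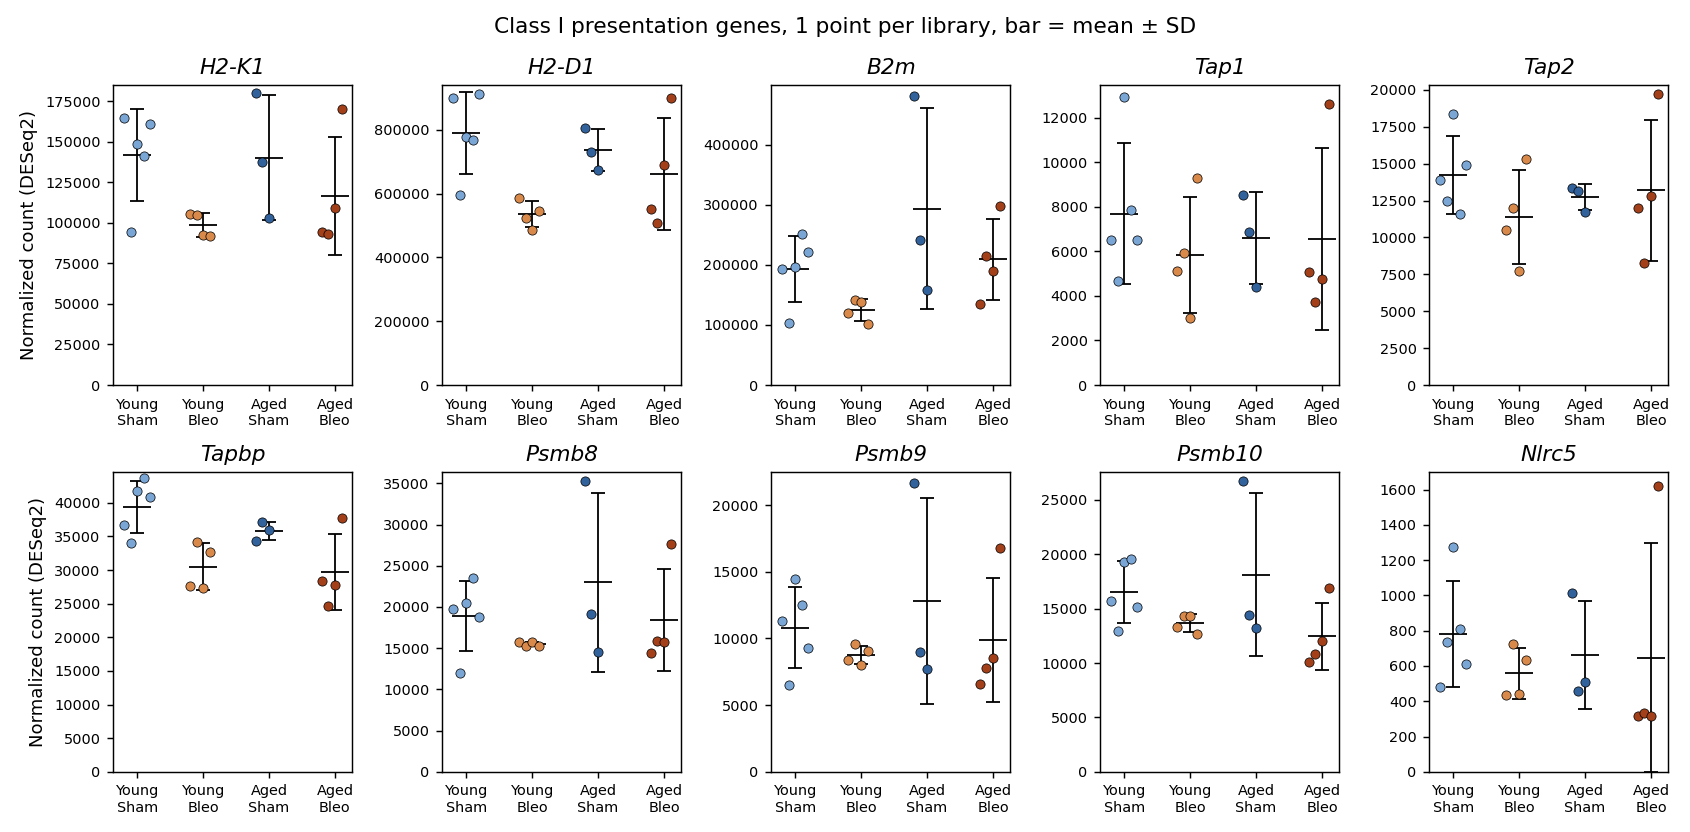
Normalized count (vertical axis, linear, from 0) of each of the 10 genes in each library, by group, with 1 point per library and a bar for the mean ± SD (5 Young Sham, 4 Young Bleo, 3 Aged Sham and 4 Aged Bleo libraries). The 4 Young Bleo points of H2-D1 (487067 to 586115) lie below all 5 Young Sham points (596005 to 913712), and in every panel the highest Aged Bleo point is replicate 5.

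Bleomycin in young mice was the comparison with the lowest median over the 10 genes. All 10 genes had a negative log2 fold change in Young Bleo against Young Sham, with values from -0.63 to -0.27 and a median of -0.38, beside a median of 0.01 over all genes tested. A gene was called at an adjusted p of at most 0.05 (DESeq2 Wald test, Benjamini-Hochberg) with a log2 fold change of 0.5 or more in either direction. By that rule 1 of the 10 genes, H2-D1, was called lower, beside 2578 of 18515 genes called in either direction (13.9%), so the members' share is near the background. With edgeR's quasi-likelihood test 1 of 10 was called as well, beside 9.78% of all genes.

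H2-D1 normalized counts were 900902, 596005, 776278, 766958 and 913712 in Young Sham replicates 21 to 25. They were 586115, 524812, 487067 and 546196 in Young Bleo replicates 17 to 20. The groups did not overlap, although Young Sham replicate 22 stood just above the highest Young Bleo library. The share of all genes without overlap between these groups is not given here. H2-D1 fell by 0.56 on the log2 scale (SE 0.172, adjusted p = 0.0113 with DESeq2, 0.0398 with edgeR). The call was lost without Young Bleo replicate 19 (DESeq2 adjusted p = 0.0567) and with limma-trend on log2(FPKM + 0.1) (adjusted p = 0.0994), while the difference stayed at -0.51 and -0.52.

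H2-K1 is the other classical heavy chain of the pathway's peptide-presenting molecule. Its normalized counts were 164827, 94332, 148910, 141043 and 161107 in Young Sham and 105558, 104630, 92345 and 92068 in Young Bleo. Young Sham replicate 22 lay among the Young Bleo values, and the other 4 Young Sham libraries lay above them. The difference was -0.53 (SE 0.217, DESeq2 adjusted p = 0.0812), which did not pass. It passed without Young Sham replicate 22 (-0.64, DESeq2 adjusted p = 0.0208). Because reads may move between near-identical genes, the heavy chains were also summed. The sum of H2-K1 and H2-D1 fell by 0.56 (SE 0.177, DESeq2 adjusted p = 0.0156), and the sum of all 24 class I heavy chain genes fell by 0.55 (SE 0.182, DESeq2 adjusted p = 0.0200). The class I share of the counts was 2.32 ± 0.374% in Young Sham (SD, n = 5) and 1.67 ± 0.141% in Young Bleo (SD, n = 4). The share of H2-D1 within class I counts was 77.0 ± 1.43% and 76.6 ± 1.02%, within each other's spread.

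Among the 12 class I heavy chain genes whose normalized counts averaged 50 or more, the log2 fold change of Young Bleo against Young Sham was negative in 12, with a median of -0.57. H2-D1, H2-Q10 (-0.53, DESeq2 adjusted p = 0.0423) and H2-T23 (-0.65, DESeq2 adjusted p = 0.0463) were called lower, 3 of 12 beside 13.9% of all genes. H2-T23 encodes Qa-1, a non-classical class I molecule read by natural killer cell receptors. Only H2-D1 was also called with edgeR. H2-Q2 (-0.62) and H2-Q4 (-0.60) did not pass (DESeq2 adjusted p = 0.0837 and 0.117). H2-Q1 had -0.58, H2-Q7 -0.63 and H2-T24 -0.73, with DESeq2 adjusted p-values of 0.168, 0.209 and 0.0607. The values nearest to 0 were those of H2-M3 (-0.01), H2-T22 (-0.10) and H2-Q6 (-0.26).

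B2m, the light chain shared by all class I molecules, had normalized counts of 193245, 104047, 196440, 251662 and 221167 in Young Sham. In Young Bleo it had 119218, 141926, 137711 and 100722. Young Sham replicate 22 was again within the Young Bleo range and the other 4 were above it. The difference of -0.63 (SE 0.308, DESeq2 adjusted p = 0.162) did not pass. When only these 2 groups were fitted, B2m (-0.62, DESeq2 adjusted p = 0.0343) and H2-K1 (-0.52, DESeq2 adjusted p = 0.0136) were called beside H2-D1. That fit called 3152 of 18686 genes in either direction.

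Of the transporter and loading genes, Tapbp varied least between libraries. Its normalized counts were 36729, 34034, 41756, 43655 and 40819 in Young Sham and 27659, 34205, 27356 and 32722 in Young Bleo. The ranges met only at Young Sham replicate 22 and Young Bleo replicate 18. The difference of -0.37 had a DESeq2 adjusted p of 0.0388 but was smaller than the fold threshold, and with edgeR the adjusted p was 0.0942. Tap1 and Tap2 overlapped widely, with differences of -0.40 (SE 0.383, DESeq2 adjusted p = 0.568) and -0.32 (SE 0.237, DESeq2 adjusted p = 0.415). The immunoproteasome subunits Psmb8, Psmb9 and Psmb10 had -0.29, -0.30 and -0.27, with DESeq2 adjusted p-values of 0.532, 0.613 and 0.458. Nlrc5, the transactivator, had -0.48 (SE 0.462, DESeq2 adjusted p = 0.562). Single libraries set the size of several of these differences, all of which stayed negative and uncalled, with DESeq2 adjusted p-values of 0.141 or more. Tap1 was at -0.13 without Young Sham replicate 23, -0.18 without Young Bleo replicate 19 and -0.71 without Young Bleo replicate 20. Tap2 was at -0.21, -0.17 and -0.50 without the same libraries, and without Young Sham replicate 23 Psmb9 was at -0.18 and Nlrc5 at -0.24.

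**Figure D2:**
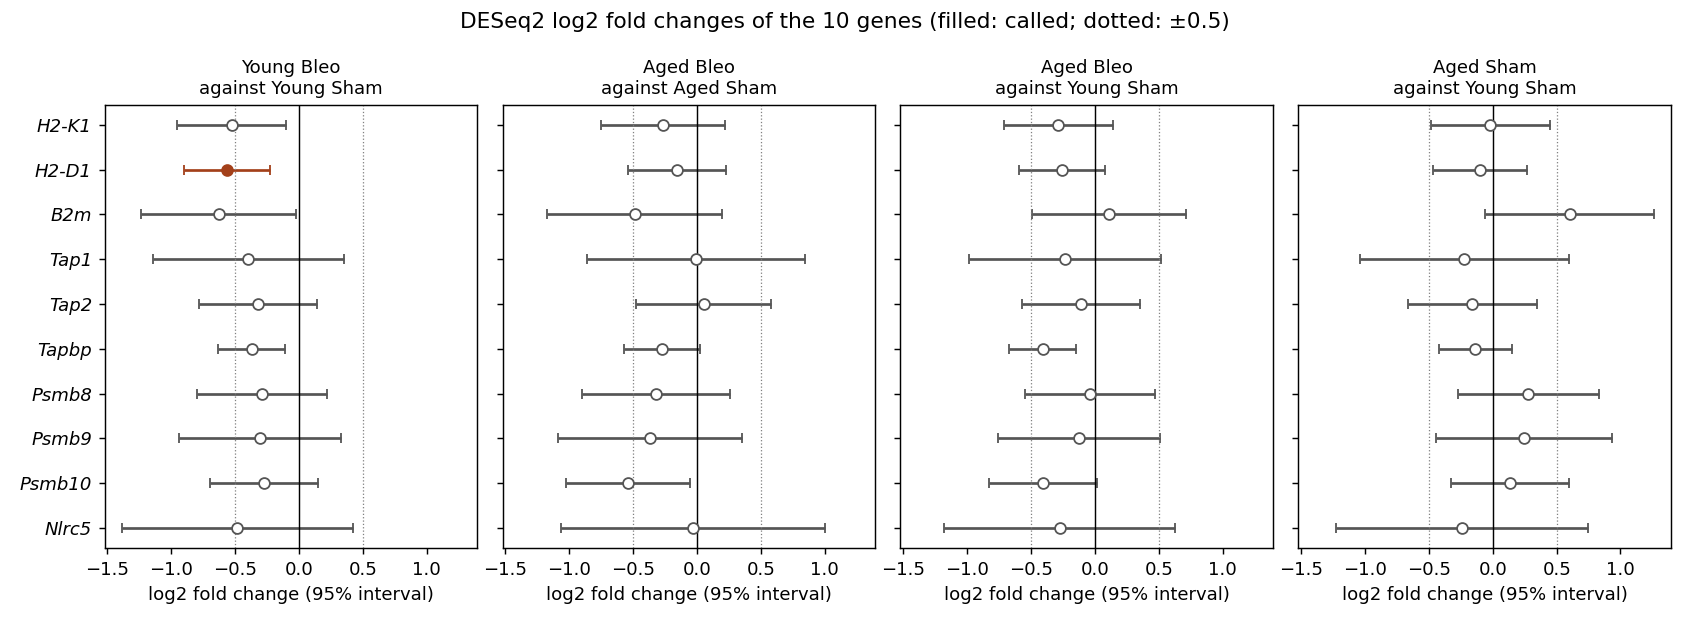
DESeq2 log2 fold change (horizontal axis) of each gene with its 95% interval in 4 comparisons. The filled point marks the only call, H2-D1 in Young Bleo against Young Sham, and dotted lines mark the fold threshold of 0.5. All 10 points of that comparison lie left of 0, while in Aged Sham against Young Sham they fall on both sides.

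Age without injury gave no call. In Aged Sham against Young Sham, 0 of 10 genes were called with DESeq2 (3.35% of all genes) or with edgeR (0.862%), and 0 had an unadjusted p under 0.05 with either. The differences ran from -0.24 for Nlrc5 to 0.60 for B2m, with a median of -0.06. B2m in Aged Sham was 480360, 241856 and 157437 in replicates 13, 14 and 15, so the higher mean came largely from replicate 13 (SE 0.336, DESeq2 adjusted p = 0.402). With 1 library left out, the B2m difference ran from 0.049 to 0.90. Psmb8 had a difference of 0.28 and Psmb9 of 0.24, and both turned negative (-0.17 and -0.37) without replicate 13. The heavy chains were close to their young level, with -0.02 for H2-K1 (95% interval -0.48 to 0.44) and -0.10 for H2-D1 (-0.47 to 0.26).

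In aged mice no gene was called after bleomycin. In Aged Bleo against Aged Sham, 0 of 10 genes were called with DESeq2 (5.83% of all genes) and 0 with edgeR (0.797%), and 1 gene with each tool had an unadjusted p under 0.05, with DESeq2 Psmb10. The median difference was -0.27. Psmb10 normalized counts were 26730, 14411 and 13207 in Aged Sham and 10122, 10804, 11997 and 16930 in Aged Bleo. Aged Bleo replicate 5 lay above 2 of the Aged Sham libraries, and the other 3 lay below all of them. The difference was -0.54 (SE 0.246, DESeq2 adjusted p = 0.194), and without Aged Bleo replicate 5 it was called (-0.72, DESeq2 adjusted p = 0.0412). H2-D1 was 804268, 731350 and 674376 in Aged Sham and 552683, 506701, 690975 and 898659 in Aged Bleo. The highest and the lowest values of both aged groups were in Aged Bleo, and the difference was -0.15 (SE 0.196, DESeq2 adjusted p = 0.758). With 1 library left out, the H2-D1 difference ran from -0.34 to -0.046. H2-K1 in Aged Bleo was 94145, 93078, 108904 and 170263, and B2m was 135004, 214361, 189373 and 297448. In both genes replicate 5 was the highest library of the group.

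The same Aged Bleo libraries were also compared with Young Sham. In Aged Bleo against Young Sham, 0 of 10 genes were called with DESeq2 (9.72% of all genes) and 0 with edgeR (5.69%). In each tool 1 gene had an unadjusted p under 0.05, with DESeq2 Tapbp. Tapbp was 28409, 24732, 27803 and 37811 in Aged Bleo, so 3 of its 4 libraries lay below all Young Sham libraries. It differed by -0.41 (SE 0.133, DESeq2 adjusted p = 0.0261), short of the fold threshold. Nlrc5 was 480, 735, 1273, 811 and 612 in Young Sham, and 317, 332, 316 and 1621 in Aged Bleo. In 3 Aged Bleo libraries Nlrc5 was below every Young Sham library, and in replicate 5 it was above all of them. With all libraries its difference was -0.27 (SE 0.462, DESeq2 adjusted p = 0.802). Without Aged Bleo replicate 5, Nlrc5 (-1.28, DESeq2 adjusted p = 0.00226) and Tapbp (-0.55, DESeq2 adjusted p = 0.000134) were called lower. The comparisons that share the Young Sham libraries are not independent of each other.

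The aged and young responses were not shown to differ. The difference of the 2 responses, aged minus young, was called for 0 of 10 genes with DESeq2 (0.381% of all genes) and 0 with edgeR (0.00546%), with 0 unadjusted p-values under 0.05 in either. It ran from -0.27 for Psmb10 to 0.45 for Nlrc5. For H2-D1 it was 0.41 with a 95% interval of -0.10 to 0.92 (DESeq2 adjusted p = 0.723). Aged Bleo against Young Bleo likewise gave 0 calls of 10 with DESeq2 (1.03% of all genes) and with edgeR (0.0437%). In each tool 1 gene had an unadjusted p under 0.05, with DESeq2 B2m (difference 0.74, SE 0.325, DESeq2 adjusted p = 0.344).

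Variation between libraries of the same group was the clearest feature of several of these genes. The SD of log2 normalized counts around the group means was 0.73 for Nlrc5, 0.63 for Tap1, 0.51 for Psmb9 and 0.51 for B2m, beside a median of 0.26 over the 6994 genes averaging 1000 or more. Nlrc5 averaged 670 and lies outside that class, and over all genes averaging 50 or more the median was 0.34. The SD was 0.18 for Tapbp and 0.25 for H2-D1, below both medians. Aged Bleo replicate 5 was the highest of its group in 10 of 10 genes. It stood above the geometric mean of the other 3 by 5.03 times in Nlrc5, 2.81 times in Tap1, 2.21 times in Psmb9, 1.73 times in H2-K1 and 1.55 times in H2-D1. Over all genes with a mean of at least 50, the median log2 difference of that library from its group was -0.01. Aged Sham replicate 13 was the highest of its group in 9 of 10 genes, by 2.60 times in Psmb9, 2.46 times in B2m and 2.11 times in Psmb8, whereas Tapbp was the exception at 0.941 times. Young Sham replicate 22 was the lowest of its group in 8 of 10 genes, with a median log2 difference of -0.60, and Aged Sham replicate 15 was the lowest of its group in 8 of 10 as well, with a median of -0.59.

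**Figure D3:**
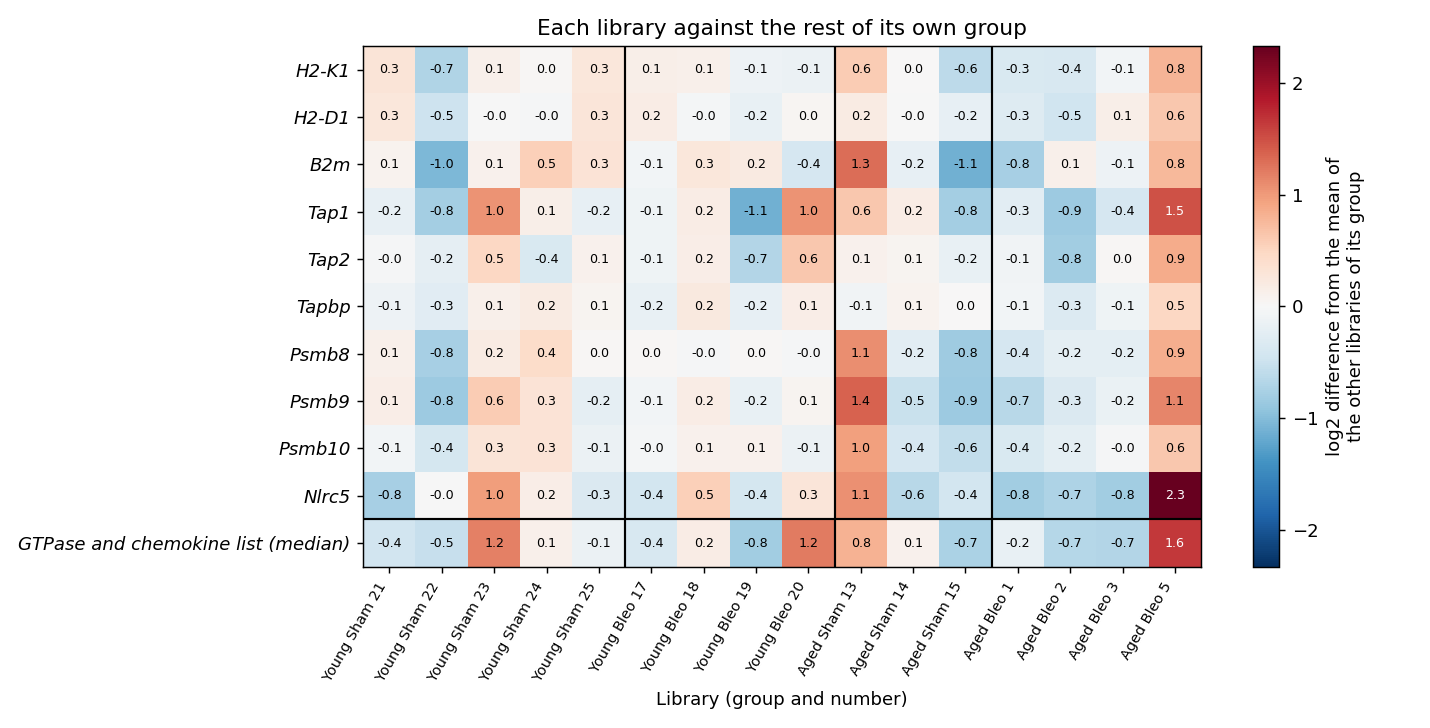
Log2 difference of each library (columns, by group) from the mean of the other libraries of its own group, for the 10 genes and for the median of 12 interferon-gamma-induced GTPase and chemokine genes (rows). Aged Bleo replicate 5 is above its group in every row, and Young Bleo replicate 20 is above its group in Tap1, Tap2 and the list but not in B2m or H2-K1.

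Some of the 10 genes, Tap1 above all, varied between libraries together with interferon-response genes, and others followed them less closely. The 12 genes of the list of interferon-gamma-induced GTPases (guanylate-binding proteins and immunity-related GTPases) and chemokines were above the group in 12 of 12 genes in Aged Bleo replicate 5, by a median of 1.64 on the log2 scale. It was 12 of 12 in Young Bleo replicate 20, by 1.21, then 11 of 12 in Young Sham replicate 23, by 1.17, and 11 of 12 in Aged Sham replicate 13, by 0.81. The 10 class I genes did not follow in all of these libraries, since their own median difference was 0.82 in Aged Bleo replicate 5 and 0.79 in Aged Sham replicate 13, but 0.24 in Young Sham replicate 23 and 0.051 in Young Bleo replicate 20. After group means were removed, the correlation with the mean of 10 GTPase genes over the 16 libraries was 0.97 for Tap1 and 0.84 for both Tap2 and Nlrc5. It was 0.73 for Psmb9, which varied widely, and also 0.73 for Tapbp, which varied least. The other 5 genes were at 0.42 to 0.63, with B2m the lowest. With group means kept in, Tap1 was at 0.89 and Nlrc5 at 0.73, whereas Tapbp was at 0.39 and H2-D1, the lowest, at 0.32. These are descriptions over libraries that share groups and depth, and they carry no p.

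The 10 genes did not vary as a single block. Over the 45 pairs, the correlation after removing group means ran from 0.17 (B2m with Tap2) to 0.96 (Psmb9 with Psmb10), with a median of 0.67. Psmb8, Psmb9 and Psmb10 were alike (0.94 to 0.96) and were close to B2m (0.86 to 0.93). Tap1 and Tap2 were alike (0.88), although Tap2 was at 0.36 to 0.52 with the immunoproteasome subunits. H2-K1 and H2-D1 were at 0.90. Young Bleo replicate 20 shows the split within 1 library. It was 2.06 times its group in Tap1 and 1.55 times in Tap2, while B2m was 0.760 times and H2-K1 0.914 times. Markers of lymphocytes also stood high in some of these libraries. Their summed level over 7 genes was 21.9 FPKM in Aged Bleo replicate 5, led by Nkg7 (13.3 FPKM) and Cd3e (4.38 FPKM), against 0.772 to 2.18 FPKM in the other 3 Aged Bleo libraries. It was 7.79 FPKM in Aged Sham replicate 13 against 2.22 and 2.29 FPKM in the other 2. Young Bleo replicate 20 had 1.70 FPKM against 0.776 to 1.11 FPKM in the rest of its group. Young Sham replicate 23, also high in the GTPase list, had 1.85 FPKM, below the 2.94 FPKM of replicate 24. The part of these cells in the class I values was not tested.

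The genes whose levels over the 16 libraries were most like the mean z score of the 10 included 5 of the 24 class I heavy chain genes among the first 10. Among 13764 candidates with a mean of at least 50, H2-T23 came first (Pearson r 0.96), and H2-Q4 (0.91), H2-Q2 (0.90), H2-Q7 (0.90) and H2-Q10 (0.89) were among the others. The remaining 5 were Gm10499 (0.94), 2410017I17Rik (0.93), H2-Bl (0.92), which is not among the 24, Gm11626 (0.92) and Gm11131 (0.91). With group means removed the first 10 differed. Gm20496, the antisense gene that overlaps Tap2 and Psmb8, came first (0.96), followed by H2-T23 (0.95), H2-Q7 (0.93), H2-Bl (0.93) and Gm10499 (0.93), then H2-K2 (0.91), Gm20478 (0.90), 2410017I17Rik (0.90), Tgtp2 (0.90) and the B cell receptor gene Cd79a (0.90). H2-T23 shared 28.8% of its 50-base windows with other genes and H2-Q7 34.9%, and the part of shared reads in the likeness was not tested.

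The immunoproteasome subunits were set against the standard subunits they replace, Psmb5, Psmb6 and Psmb7, within each library. In Young Sham the FPKM ratio was 2.55 ± 0.395 for Psmb8/Psmb5, 0.464 ± 0.157 for Psmb9/Psmb6 and 3.82 ± 0.671 for Psmb10/Psmb7 (SD, n = 5). Psmb8 and Psmb10 were above their standard counterparts in all 5 Young Sham libraries, in FPKM and in normalized counts. For Psmb9 the ratio to Psmb6 in normalized counts was 0.605 to 0.872 in 4 of 5 Young Sham libraries and 1.42 in replicate 23, and the ratio per length depends on the length used. The Psmb10/Psmb7 ratio was 3.41, 3.63, 5.01, 3.44 and 3.63 in Young Sham and 2.86, 2.96, 2.40 and 3.23 in Young Bleo, without overlap. The log2 ratio of normalized counts differed by -0.41 (two-sided exact permutation test, p = 0.0159, adjusted p = 0.238 over 15 tests, lower in 4 of 4 Young Bleo libraries), which does not pass the correction. In Aged Bleo the ratio was 2.38, 1.98, 2.88 and 4.55, and in Aged Sham 4.72, 3.15 and 3.33. The other 14 tests had unadjusted exact permutation p-values of 0.159 to 0.893. Psmb5, Psmb6 and Psmb7 themselves were called in no comparison.

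**Figure D4:**
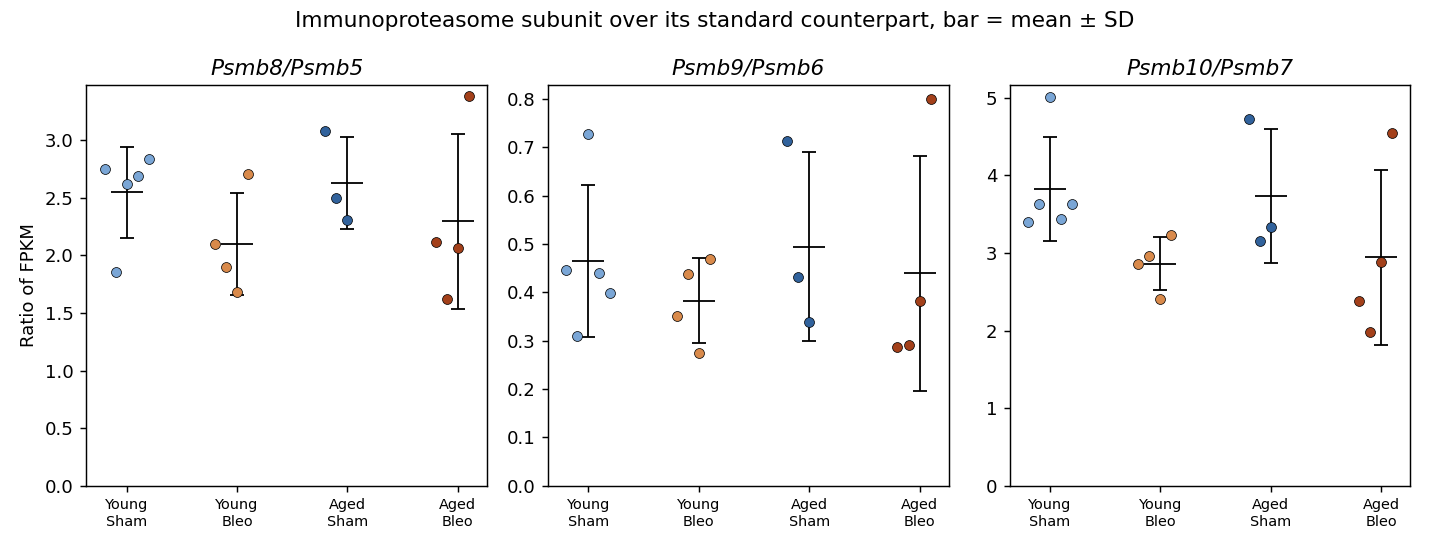
Ratio of FPKM (vertical axis, linear, from 0) of each immunoproteasome subunit to its standard counterpart, with 1 point per library and a bar for the mean ± SD in each group. The Psmb10/Psmb7 points of Young Bleo (2.40 to 3.23) lie below those of Young Sham (3.41 to 5.01), and the other panels overlap between groups.

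The wider pathway was described with 55 genes in 8 lists: standard proteasome subunits, proteasome activators, peptide trimming enzymes, loading chaperones, class I promoter factors, interferon signalling, interferon-gamma-induced genes and NF-kappaB. In Young Bleo against Young Sham 3 of 55 were called higher and 4 lower with DESeq2, beside 13.9% of all genes in either direction, and the median difference was -0.02. The share of the lists called was thus near that of all genes. Tapbpl, a tapasin-related peptide editor, fell by 0.55 (SE 0.148, DESeq2 adjusted p = 0.00321). Of 6 trimming peptidases, Lap3 rose by 0.80 (DESeq2 adjusted p = 0.00347) and Npepps fell by 0.54 (DESeq2 adjusted p = 0.00757). The receptor chains for interferon-gamma moved in opposite directions, with Ifngr1 higher by 1.12 (DESeq2 adjusted p = 0.0036) and Ifngr2 lower by 1.13 (DESeq2 adjusted p = 1.03e-06). The chemokine Cxcl10 rose by 2.06 (DESeq2 adjusted p = 0.000693), and Rela, the NF-kappaB subunit, fell by 0.91 (DESeq2 adjusted p = 0.00481). All 7 were also called with edgeR. None of the 8 promoter factors, which include the RFX and NF-Y subunits, was called in any comparison.

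In Aged Bleo against Young Sham 2 of 55 were called higher and 2 lower with DESeq2, beside 9.72% of all genes. The share of the lists was thus not above that of all genes. Tapbpl fell by 0.55 (DESeq2 adjusted p = 0.00443) and Ifngr2 by 0.81 (DESeq2 adjusted p = 0.0011). Ifngr1 rose by 1.05 (DESeq2 adjusted p = 0.01) and Cxcl10 by 3.65 (DESeq2 adjusted p = 4.33e-11). In Aged Sham against Young Sham 2 of 55 were called higher and 1 lower with DESeq2, beside 3.35% of all genes. There Cxcl10 rose by 3.74 (DESeq2 adjusted p = 1.82e-09) and Cxcl9 was called higher (DESeq2 adjusted p = 0.0331), while Nfkb1 fell by 0.51 (DESeq2 adjusted p = 0.0331), and of these edgeR called Cxcl10 alone. Cxcl9 had 0 counts in 4 of 5 Young Sham libraries and 14 in the other, against 66, 13 and 125 raw counts in Aged Sham, so no fold is given. The 10 GTPase genes of that list were called in no comparison with DESeq2. In Aged Bleo against Aged Sham 2 of 55 were called higher and 1 lower with DESeq2, beside 5.83% of all genes. Ifngr1 rose by 1.29 (DESeq2 adjusted p = 0.00839) and Lap3 by 0.79 (DESeq2 adjusted p = 0.0303), and Nfkbia, the NF-kappaB inhibitor, fell by 0.59 (DESeq2 adjusted p = 0.0236), none of them with edgeR. Ifngr1 was thus called higher with DESeq2 after bleomycin at both ages, beside the macrophage markers given above. Cxcl10 differed by -0.085 in Aged Bleo against Aged Sham (SE 0.523, DESeq2 adjusted p = 0.962), and its difference of responses did not pass (-2.14, DESeq2 adjusted p = 0.221).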

How the data were processed

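RNA-seq of 16 libraries was analysed from 1 deposited table. Per the submitters' processing notes, reads were aligned with STAR 2.5.2b to mm10 and counted with featureCounts of the Subread package. The authors deposited raw read counts and FPKM per gene. The FPKM were used for levels between genes and for 1 kind of alternative. Which annotation release and strand setting were used, and how reads with several matches were treated, is not given in the sources used here, and the labels (SMART-Seq v4 with Nextera) and the study's methods (TruSeq) name different library kits.

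Counts were tested with DESeq2 1.42.0 (R 4.3.3; Wald test, all 16 libraries, group as the only term, all genes), which the study's methods name. Alternatives were edgeR 4.0.16 (quasi-likelihood), limma 3.58.1 (voom, and trend on log2(FPKM + 0.1) or log2(FPKM + 1) for genes with a mean FPKM of at least 0.1), TMM size factors, a filter of 10 counts in 3 libraries, fits of the compared groups alone, no fold threshold, and leaving out each library in turn. The scripts were tested on simulated data. Proteasome ratios were compared with exact permutation tests (scipy 1.17.1). Named genes were all members, the called pathway genes averaging 50 normalized counts or more (up to 3 per list and comparison, by size), class I heavy chains above that mean, and the 10 genes most like the members. Members and lists were chosen with earlier results of these data known. The study took the ECs from the lungs also used for its chromatin assay, where each data point was 1 mouse, while the labels do not name the mouse of each library and give no batch, so p-values measure the spread between these libraries, which may be technical in part. Promoter sequences were taken from RefSeq (GRCm38.p6, the same assembly as mm10), and Tap2 and Nlrc5 had no entry. Intervals given for fold changes are 95% Wald intervals.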

Additional observations from a re-analysis of the deposited data

Results flagged for a closer look

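With 30 groups of 4 or 5 libraries examined (10 genes in Young Sham, Young Bleo and Aged Bleo), 3 values stood far from the others of their group, all of them the highest of Aged Bleo and all in replicate 5. Chance gives about 1 in 20 such groups, and these 3 come from the same library. Nlrc5 was at 1621 normalized counts against 316 to 332 in the other 3 libraries, Psmb8 at 27636 against 14435 to 15826, and Tap1 at 12624 against 3725 to 5093. Aged Sham has 3 libraries and was not examined in this way.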

How the results depend on the processing

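Of 626 alternative log2 fold changes of the members, 576 kept direction and call. In Young Bleo against Young Sham the number of members called was 1, and it was 0 with limma-trend on log2(FPKM + 0.1) or log2(FPKM + 1), 3 with the compared groups alone and 2 without a fold threshold. Over all genes, the 2 FPKM scales called 1990 and 1478 of 16133, and the compared groups alone called 3152 of 18686. No such count is given for the setting without a fold threshold. For Aged Bleo against Young Sham the number of members called was 1 without a fold threshold. Leaving out 1 library gave 0 to 2 in Young Bleo against Young Sham (0 without Young Bleo replicate 19, 2 without Young Sham replicate 22), 0 to 2 in Aged Bleo against Young Sham and 0 to 1 in Aged Bleo against Aged Sham (2 and 1 without Aged Bleo replicate 5). In these 3 comparisons it gave 1807 to 3339, 1048 to 2274 and 474 to 1492 calls over all genes. Values near 0 changed sign with the tool. Psmb10 in Aged Sham against Young Sham was -0.060 with log2(FPKM + 0.1) and -0.059 with log2(FPKM + 1). For Aged Bleo against Aged Sham, Tap1 was 0.0067 with edgeR, 0.0065 with log2(FPKM + 1) and 0.021 with TMM size factors, Tap2 was -0.00039 with voom and Nlrc5 was 0.0027 with TMM size factors. With 1 library left out, the following ranges crossed 0. For Aged Sham against Young Sham, they were H2-K1 from -0.24 to 0.16, Tap1 from -0.45 to 0.046, Psmb8 from -0.17 to 0.52, Psmb9 from -0.37 to 0.50, Psmb10 from -0.26 to 0.32, Nlrc5 from -0.69 to 0.0025, Psmb8/Psmb5 from -0.071 to 0.14, Psmb9/Psmb6 from -0.22 to 0.31 and Psmb10/Psmb7 from -0.22 to 0.070. For Aged Bleo against Young Sham, they were B2m from -0.11 to 0.27, Tap1 from -0.77 to 0.036, Tap2 from -0.37 to 0.062, Psmb8 from -0.30 to 0.061, Psmb9 from -0.50 to 0.028 and Psmb9/Psmb6 from -0.49 to 0.019. For Aged Bleo against Aged Sham, they were B2m from -0.79 to 0.066, Tap1 from -0.54 to 0.22, Tap2 from -0.21 to 0.22, Psmb8 from -0.58 to 0.13, Psmb9 from -0.75 to 0.24, Nlrc5 from -1.04 to 0.42 and Psmb9/Psmb6 from -0.57 to 0.066. For Aged Bleo against Young Bleo, they were Psmb10/Psmb7 from -0.26 to 0.15, Psmb8/Psmb5 from -0.10 to 0.25 and Psmb9/Psmb6 from -0.24 to 0.25. The Psmb10/Psmb7 difference of Aged Bleo against Young Sham was -0.66 without Aged Bleo replicate 5 (exact permutation test, p = 0.0357, unadjusted). The cause was not tested. Over all genes, edgeR called 158, 1043, 146, 8 and 1 where DESeq2 called 621 (Aged Sham against Young Sham), 1800 (Aged Bleo against Young Sham), 1080 (Aged Bleo against Aged Sham), 190 (Aged Bleo against Young Bleo) and 74 (difference of the responses). These counts also moved by more than 1.5 times when 1 library was left out. The count was 369 in Aged Sham against Young Sham without Aged Sham replicate 14. In Aged Bleo against Young Sham it was 1048 and 1113 without Aged Bleo replicates 1 and 2. Aged Bleo against Aged Sham had 474 without Aged Bleo replicate 1, 657 without Aged Sham replicate 15 and 647 with the compared groups alone. Aged Bleo against Young Bleo had 360 and 115 without Aged Bleo replicates 1 and 5, and 109 and 469 without Young Bleo replicates 19 and 20. The difference of the responses had 45, 45, 36 and 226 without Young Bleo replicates 17, 18, 19 and 20. In the order above, voom called 104, 1120, 53, 29 and 1, limma-trend on log2(FPKM + 0.1) called 139, 1141, 369, 32 and 0, and limma-trend on log2(FPKM + 1) called 159, 892, 279, 54 and 3. In Young Bleo against Young Sham, log2(FPKM + 1) gave 1478 against 2578 with DESeq2. On log2(FPKM + 0.1) the median of all genes moved to -0.12 in Aged Sham against Young Sham and 0.12 in Aged Bleo against Aged Sham, where 290 genes were called higher and 79 lower, against 628 and 452 with DESeq2. No paired analysis was possible because the replicate numbers do not repeat between groups. Nlrc5 had the fewest raw counts of the members (399 in its lowest library).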
